A study of Mus musculus with 24 samples.

Results

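L858R lung tumours were compared with L858R+T790M lung tumours of the mouse after the normal lungs of the matching strain label had been subtracted from each, (L858R minus Normal) minus (L858R+T790M minus control). The groups were taken from the array titles, and 19 of the 24 arrays in the series entered the contrast: 4 L858R tumours, 5 Normal lungs, 5 L858R+T790M tumours and 5 control lungs. The tumours were visible nodules macro-dissected from bitransgenic mice (C/L858R and C/L+T in the labels) that had received doxycycline (dox) in the diet for 3 to 6 months. The Normal and control lungs came from littermates on dox that had no transgene or only 1, and the labels do not say which. L858R and Normal arrays carry the strain label FVB mixed, and L858R+T790M and control arrays the label FVB. The labels give no age, no transgene promoter and no number of animals per array. They do not say that each array is a separate animal. The p-values below therefore rest on how far the arrays of a group scatter, which may be technical.

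The epidermal growth factor receptor (EGFR) is a membrane kinase that is switched on by ligands of the EGF family and feeds the ERK and PI3K pathways. L858R is an activating change in its kinase domain, found in human lung adenocarcinoma. T790M is the kinase change known for resistance of such tumours to the early EGFR inhibitors, and it often accompanies L858R on the same receptor. ERK signalling induces its own inhibitors, among them the Dusp phosphatases and the Sprouty and Spred proteins, as well as several EGFR ligands.

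All levels below are log2 values per gene as summarised by RMA on Affymetrix mouse genome arrays, and differences are on the same scale ± SE. A difference of 1 in this contrast means that the tumour-to-normal ratio was 2-fold higher in L858R than in L858R+T790M tumours. Array medians lay between 7.21 and 7.34. Correlations between arrays of a group were 0.990 or above in control, 0.989 or above in Normal, and as low as 0.977 in L858R and 0.962 in L858R+T790M tumours. Each of these groups held arrays of both sexes by Xist and Y-linked genes, with 2 female arrays among the controls, 2 among Normal, 2 among L858R and 3 among L858R+T790M. The type 2 cell surfactant genes were bright, with mean levels over all arrays of 14.8 for Sftpc and 14.2 for Sftpb. In bulk tissue, fewer cells of a type and less RNA per cell cannot be told apart.

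Both tumour groups differed from their own normal lungs in much the same genes. In L858R tumours 7523 of 18193 genes were called (41.4%, with 23.3% higher and 18.1% lower) at an adjusted p under 0.05 in limma. In L858R+T790M tumours 6594 were (36.2%, with 20.2% higher and 16.1% lower). These comparisons share no array. Across genes, which are not independent replicates, their log2 differences correlated at r = 0.889. In the same direction 5094 genes were called in both, 67.7% of the L858R calls and 77.3% of the L858R+T790M calls, and 9 genes were called in opposite directions. The L858R calls were 4235 higher and 3288 lower, but 5786 and 2809 with each array centred on its median.

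The difference between the tumour effects was called for 13 genes (0.0715% of 18193), 7 higher (0.0385%) and 6 lower (0.0330%) in L858R. The higher genes were Cd200r4, Slc15a2, Eya1, Lipf, Dhrs3, Scpep1 and Nrg4. The lower genes were Gpc6, Zfp874a, Tmem119, Fam114a1, Peak1 and Sybu. At an unadjusted p under 0.05 there were 1735 genes (9.54%), 876 higher and 859 lower. The median difference over all genes was 0.01, and 51.9% of genes lay above zero. A gene without a call is not shown to be alike in the tumours: the 95% interval had a median half-width of 0.32, and for 86.1% of genes it lay within 1 log2 unit of zero on either side. The count of 13 moved with single arrays, from 5 without control replicate 4 or Normal replicate 3 to 25 without L858R+T790M replicate 4. Eya1, Lipf, Gpc6, Zfp874a and Peak1 were called whichever of the 19 arrays was left out.

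**Figure D1:**
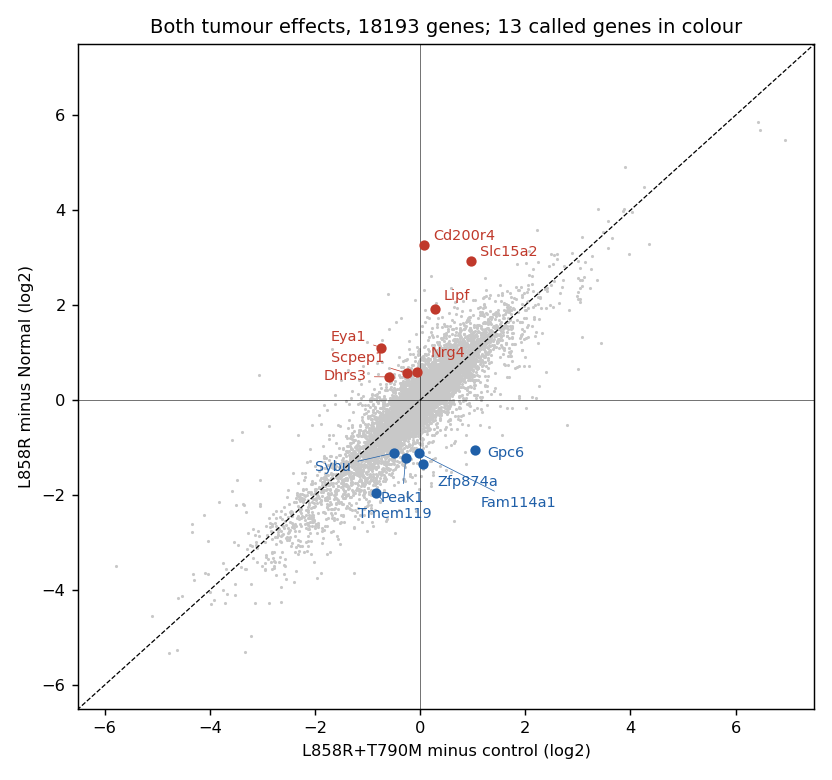
Each point is a gene, with its log2 difference from control in L858R+T790M tumours on the x axis and from Normal in L858R tumours on the y axis. Most genes lie along the dashed line of equal effects (r = 0.889), and the 13 called genes, red where higher and blue where lower in L858R, lie off it.

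Lipf, the gene of gastric lipase, rose in L858R tumours and was not called in L858R+T790M tumours. Its level was 7.67, 6.83, 6.44 and 7.03 in L858R tumours, 5.38, 4.73, 4.91, 5.07 and 5.23 in Normal, 5.15, 4.94, 5.07, 5.50 and 5.00 in L858R+T790M tumours, and 4.98, 4.80, 4.88, 4.79 and 4.79 in control. Every L858R tumour lay above every other array, and the other groups lay close together. The tumour effect was 1.93 ± 0.18 for L858R and 0.28 ± 0.17 for L858R+T790M (95% interval -0.06 to 0.63). Their difference was 1.64 ± 0.24, or 3.13-fold (adjusted p = 0.00568), and it lay between 1.42 and 1.83 with any array left out.

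Nrg4, the gene of neuregulin 4, an EGF-family ligand of the receptor ERBB4, gave the same order at a smaller size. It measured 7.38, 7.31, 7.24 and 7.38 in L858R tumours, 6.76, 6.64, 6.87, 6.67 and 6.70 in Normal, 6.84, 6.63, 6.79, 7.04 and 6.82 in L858R+T790M tumours, and 6.89, 6.83, 6.84, 6.87 and 6.94 in control. The L858R tumours again lay above all other arrays. The L858R effect was 0.60 ± 0.09 and the L858R+T790M effect -0.05 ± 0.08, a difference of 0.65 ± 0.12 or 1.57-fold (adjusted p = 0.0377). The call was kept only without L858R replicate 3 or L858R+T790M replicate 4 and lost without any of the other 17 arrays (0.60 to 0.70 over all 19). A dimmer probe set of Nrg4 gave 0.21 ± 0.17, and the call was also lost with sex as a covariate (0.65, adjusted p = 0.0522).

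The RefSeq promoter windows of Lipf and Nrg4 are shown because these genes were raised in L858R tumours with all other groups near one level. Each window runs from 250 bases before to 50 bases after the annotated start in GRCm38.p6, written 5′ to 3′ along the gene. Lipf lies on the + strand at chr19:33960998-33961297 and Nrg4 on the - strand at chr9:55283576-55283875.
Lipf: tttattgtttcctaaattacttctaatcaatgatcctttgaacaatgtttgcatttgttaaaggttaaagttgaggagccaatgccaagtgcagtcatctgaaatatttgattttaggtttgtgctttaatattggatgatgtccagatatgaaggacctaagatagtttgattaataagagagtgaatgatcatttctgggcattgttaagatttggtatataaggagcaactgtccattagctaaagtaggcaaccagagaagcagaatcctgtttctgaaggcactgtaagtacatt
Nrg4: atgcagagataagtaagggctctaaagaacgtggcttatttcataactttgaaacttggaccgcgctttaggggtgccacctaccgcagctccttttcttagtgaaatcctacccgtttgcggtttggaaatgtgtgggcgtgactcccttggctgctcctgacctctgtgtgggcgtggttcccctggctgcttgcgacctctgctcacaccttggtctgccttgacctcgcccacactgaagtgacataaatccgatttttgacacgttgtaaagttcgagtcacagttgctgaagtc
Of the 13 called genes 9 had such a window. The AP-1 motif TGANTCA was found on either strand in 0 of these 9 genes and in 7.81% of all 32851 windows. The ETS motif CCGGAAG was likewise found in 0 of the 9 and in 8.86% of all windows, so no letters are in capitals. This says only that these letters are absent from these windows.

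Eya1, the gene of a transcription co-activator and phosphatase of developing organs, was called in opposite directions in the tumour groups. Its level was 7.89, 7.94, 7.82 and 7.26 in L858R tumours against 6.50, 6.55, 6.75, 6.61 and 6.71 in Normal. It was 5.97, 5.76, 6.58, 6.37 and 6.28 in L858R+T790M tumours against 6.83, 7.17, 7.06, 6.92 and 6.66 in control. L858R tumours lay wholly above their normal lungs and L858R+T790M tumours wholly below theirs. The effects were 1.10 ± 0.22 (adjusted p = 0.000308) and -0.74 ± 0.20 (adjusted p = 0.00689), and their difference was 1.84 ± 0.30 or 3.58-fold (adjusted p = 0.0128). The other probe sets of Eya1 gave smaller differences, 0.41 ± 0.10 and 0.47 ± 0.13, and with the median over probe sets the difference was 0.60 (adjusted p = 0.210).

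Dhrs3, the gene of a retinal reductase of vitamin A metabolism, had the same pattern. The arrays read 11.44, 10.99, 11.09 and 10.83 in L858R tumours and 10.56, 10.80, 10.44, 10.61 and 10.58 in Normal. They read 9.89, 10.08, 10.51, 10.31 and 10.03 in L858R+T790M tumours and 10.85, 10.71, 10.75, 10.79 and 10.68 in control. Neither tumour group overlapped its normal lungs, and the tumour groups did not overlap each other. The effects of 0.49 ± 0.14 and -0.59 ± 0.13 were both called (adjusted p = 0.00740 and 0.00117) and differed by 1.08 ± 0.19 or 2.12-fold (adjusted p = 0.0323). The call was kept without control replicate 3, Normal replicate 2, L858R replicate 2, 3 or 4, or L858R+T790M replicate 2, 3 or 4, and lost without any of the other 11 arrays (0.96 to 1.17 over all 19, adjusted p up to 0.0763).

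Scpep1, the gene of a lysosomal serine carboxypeptidase, was 11.52, 11.36, 11.35 and 11.78 in L858R tumours and 11.03, 10.89, 11.03, 10.75 and 10.96 in Normal. In L858R+T790M tumours it was 10.60, 10.65, 11.04, 11.04 and 11.16, and in control 11.16, 11.29, 11.12, 10.99 and 11.22. The L858R tumours lay above all other arrays, while L858R+T790M tumours overlapped control. The L858R effect was 0.57 ± 0.11 and the L858R+T790M effect -0.26 ± 0.11 (adjusted p = 0.0641), with a difference of 0.83 ± 0.16 or 1.78-fold (adjusted p = 0.0377). The call was kept without L858R replicate 2 or 3 or L858R+T790M replicate 3, 4 or 5 and lost without any of the other 14 arrays (0.74 to 0.89 over all 19). It was also lost with sex as a covariate (0.83, adjusted p = 0.0522) and with the median over its probe sets (0.63, adjusted p = 0.0590).

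Cd200r4, the gene of a CD200 receptor family member of myeloid cells, had the largest difference and the least even normal lungs. Its level was 8.96, 9.95, 8.84 and 9.38 in L858R tumours, and 4.88, 4.41, 4.58, 4.83 and 4.77 in L858R+T790M tumours. The control lungs measured 4.59, 4.60, 4.66, 4.55 and 4.70, within the range of the L858R+T790M tumours. The Normal lungs split, with 7.26, 7.42 and 6.41 in replicates 1, 2 and 4 and 4.57 and 4.47 in replicates 3 and 5. The L858R effect of 3.26 ± 0.44 and the L858R+T790M effect of 0.07 ± 0.41 differed by 3.18 ± 0.60, or 9.08-fold (adjusted p = 0.0377). The call was kept without Normal replicate 1 or 2, L858R replicate 3 or L858R+T790M replicate 4 and lost without any of the other 15 arrays (2.79 to 3.53 over all 19, adjusted p up to 0.103). It was also lost with array weights (2.84, adjusted p = 0.115), with weights per group (3.18, adjusted p = 0.0944), in a fit to these 4 groups alone (3.18, adjusted p = 0.0525) and with sex as a covariate (3.17, adjusted p = 0.0522).

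Ms4a8a, a gene of the MS4A family of membrane proteins, split the Normal lungs in the same way without reaching a call. It was 9.82, 9.84, 8.10 and 8.87 in L858R tumours and 5.53 to 6.06 in L858R+T790M tumours, with control between 5.43 and 5.94. Normal replicates 1, 2 and 4 read 7.05, 7.46 and 7.21, and replicates 3 and 5 read 5.56 and 5.48. For both genes these Normal lungs lay between the L858R tumours and all other arrays. The sexes did not divide this way, since Normal replicates 2 and 3 were the female arrays. The strain-adjusted difference of Ms4a8a was 2.39 ± 0.49 (adjusted p = 0.0684).

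Slc15a2, the gene of the peptide transporter PEPT2, rose in both tumour groups. It measured 12.17, 12.24, 11.61 and 12.38 in L858R tumours against 9.24, 8.97, 9.19, 9.68 and 8.78 in Normal. It measured 11.45, 11.90, 10.62, 11.17 and 11.81 in L858R+T790M tumours against 10.67, 10.44, 10.23, 10.33 and 10.45 in control. The tumour groups overlapped, and the lower Normal lungs set the effects apart. These were 2.93 ± 0.26 in L858R and 0.97 ± 0.24 in L858R+T790M tumours, a difference of 1.96 ± 0.35 or 3.90-fold (adjusted p = 0.0323). The direct difference between the tumours was 0.71 ± 0.26 (adjusted p = 0.136) and the Normal lungs lay 1.25 below control (-1.25 ± 0.24, adjusted p = 0.0167). The other probe sets gave 0.68 ± 0.37 and 0.85 ± 0.56, and the call was lost with the median over probe sets (0.71, adjusted p = 0.553). It was kept without control replicate 3, Normal replicate 4, L858R replicate 3 or L858R+T790M replicate 2, 3, 4 or 5 and lost without any of the other 12 arrays (1.77 to 2.13 over all 19).

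**Figure D2:**
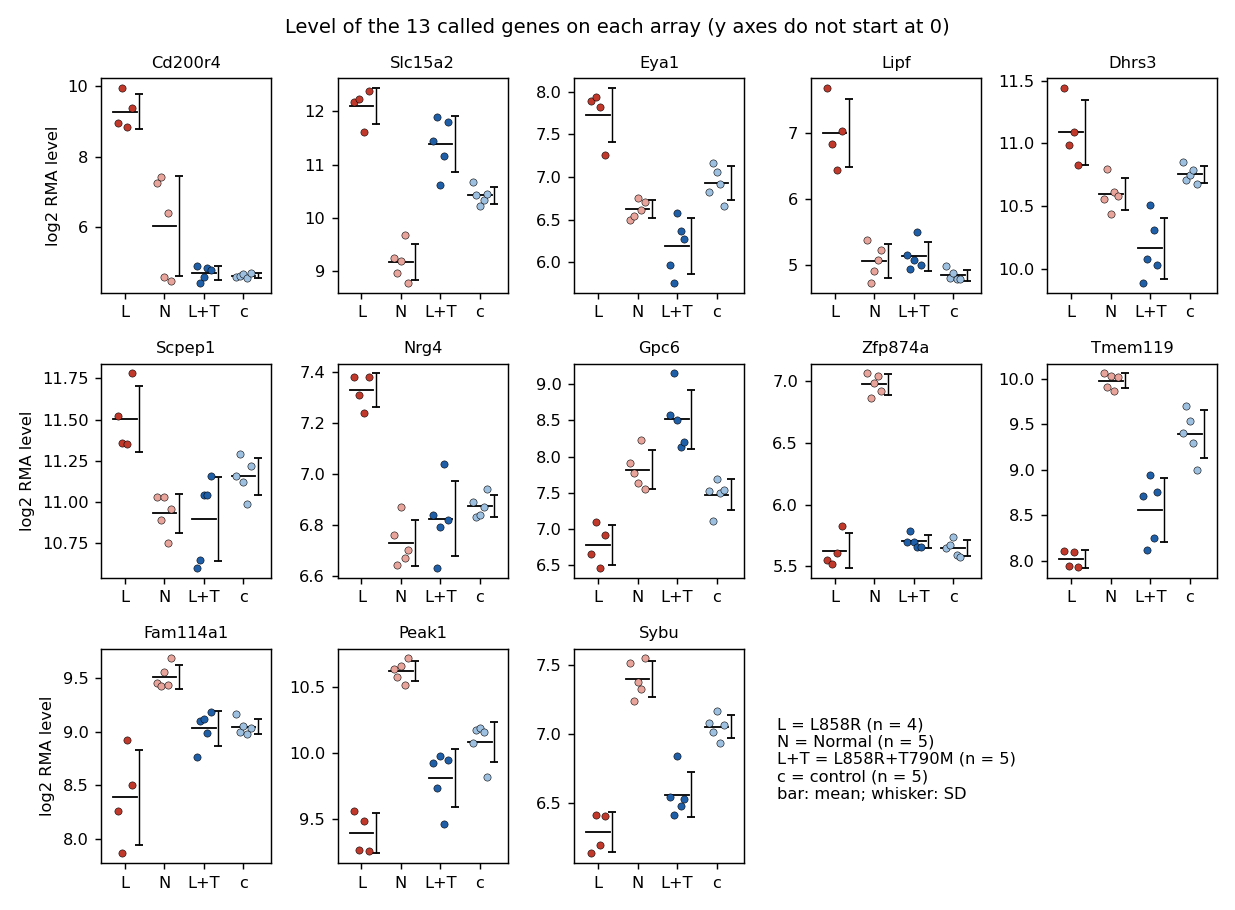
Log2 RMA level of the 13 called genes on each array of the 4 groups, with the group mean as a bar and the SD as a whisker. The L858R tumours stand above every other array for Lipf, Nrg4, Eya1, Scpep1 and Cd200r4, while Zfp874a is set apart by its Normal lungs.

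Gpc6, the gene of glypican 6, a heparan sulfate proteoglycan of the cell surface, had the largest lower difference and moved in opposite directions. Its level was 6.65, 7.09, 6.46 and 6.91 in L858R tumours and 7.91, 7.77, 7.64, 8.23 and 7.55 in Normal. It was 8.58, 9.15, 8.51, 8.13 and 8.20 in L858R+T790M tumours and 7.53, 7.11, 7.69, 7.49 and 7.54 in control. Each tumour group lay clear of its normal lungs, on opposite sides. The L858R effect was -1.04 ± 0.19 (adjusted p = 0.000119) and the L858R+T790M effect 1.04 ± 0.18 (adjusted p = 8.03e-05). Their difference was -2.08 ± 0.26, a ratio of 0.236 (adjusted p = 0.000470). The 4 other probe sets of Gpc6 were lower too, by -1.64 ± 0.29, -1.68 ± 0.28, -0.96 ± 0.24 and -0.43 ± 0.16, and the median over probe sets gave -1.12 (adjusted p = 0.0590).

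Peak1, the gene of a pseudokinase scaffold of growth factor receptor signalling and the cytoskeleton, fell in both tumour groups and further in L858R. It read 9.56, 9.27, 9.49 and 9.26 in L858R tumours and 10.64, 10.58, 10.66, 10.52 and 10.72 in Normal. In L858R+T790M tumours it read 9.93, 9.74, 9.98, 9.46 and 9.95, and in control 10.08, 10.18, 10.19, 10.16 and 9.82. The tumour groups overlapped at 1 array, L858R+T790M replicate 4, and the Normal lungs lay above all others. The effects were -1.23 ± 0.11 and -0.27 ± 0.10 (adjusted p = 0.0422), with a difference of -0.95 ± 0.15 (adjusted p = 0.0107). The direct difference between tumours was -0.42 ± 0.11 (adjusted p = 0.0453), while Normal lay 0.54 ± 0.10 above control (adjusted p = 0.0159). Other probe sets of Peak1 gave -1.51 ± 0.16, -1.57 ± 0.19 and -0.89 ± 0.18, and the dimmest gave 0.15 ± 0.09.

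Tmem119, a membrane protein gene known from microglia and bone-forming cells, fell in both tumour groups. It was 8.11, 7.94, 8.10 and 7.93 in L858R tumours and 10.06, 9.91, 10.03, 9.87 and 10.02 in Normal. It was 8.71, 8.12, 8.94, 8.25 and 8.76 in L858R+T790M tumours and 9.41, 9.70, 9.54, 9.30 and 9.0 in control. The tumour groups nearly touched, and the normal sets did not overlap. The effects of -1.96 ± 0.15 and -0.83 ± 0.14 differed by -1.12 ± 0.20 (adjusted p = 0.0334). The tumours differed directly by -0.54 ± 0.15 (adjusted p = 0.0561) and the normal sets by 0.59 ± 0.14 (adjusted p = 0.0451). The call was kept without control replicate 2 or 3, Normal replicate 2, L858R replicate 3 or L858R+T790M replicate 2, 3 or 4 and lost without any of the other 12 arrays (-1.23 to -1.03 over all 19).

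Sybu, the gene of syntabulin, which links membrane cargo to kinesin, had the smallest called difference. Its values were 6.14, 6.42, 6.20 and 6.41 in L858R tumours and 7.52, 7.24, 7.38, 7.33 and 7.55 in Normal. They were 6.55, 6.42, 6.84, 6.48 and 6.53 in L858R+T790M tumours and 7.08, 7.02, 7.17, 6.94 and 7.07 in control. The highest L858R tumour equalled the lowest L858R+T790M tumour, and both groups lay below all normal lungs. The effects were -1.11 ± 0.08 and -0.49 ± 0.08, with a difference of -0.62 ± 0.11 (adjusted p = 0.0375), of which the normal sets made up 0.35 ± 0.08. The call was kept without control replicate 3, Normal replicate 2, L858R replicate 2 or 4 or L858R+T790M replicate 2, 3 or 4, lost without any of the other 12 arrays (-0.66 to -0.55 over all 19), and lost with sex as a covariate (-0.62, adjusted p = 0.0522).

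Fam114a1 fell in L858R tumours, with no call in L858R+T790M tumours. It measured 8.26, 7.87, 8.92 and 8.50 in L858R tumours and 9.45, 9.42, 9.55, 9.43 and 9.68 in Normal. It measured 8.76, 9.10, 9.12, 8.99 and 9.18 in L858R+T790M tumours, around the 9.16, 9.0, 9.05, 8.98 and 9.03 of control. L858R replicate 3 lay within the range of the L858R+T790M tumours. The effects were -1.12 ± 0.14 and -0.01 ± 0.13 (95% interval -0.29 to 0.26), and the difference was -1.10 ± 0.19 (adjusted p = 0.0307). It was lost without control replicate 2, 4 or 5, Normal replicate 1, 3 or 5, L858R replicate 1 or L858R+T790M replicate 5 (-1.28 to -0.93 over all 19, adjusted p up to 0.0623), and with the median over probe sets (-0.82, adjusted p = 0.0590).

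Zfp874a, a zinc finger protein gene, was the one called gene whose difference lay almost wholly in the normal lungs. The Normal lungs measured 7.06, 6.86, 6.98, 7.04 and 6.92. All other arrays lay low, with 5.55, 5.52, 5.61 and 5.83 in L858R tumours, 5.70, 5.79, 5.70, 5.66 and 5.66 in L858R+T790M tumours and 5.65, 5.67, 5.74, 5.59 and 5.58 in control. The L858R effect was -1.34 ± 0.07 and the L858R+T790M effect 0.06 ± 0.06, a difference of -1.40 ± 0.09 (adjusted p = 1.07e-08). The tumours differed directly by -0.07 ± 0.07 (adjusted p = 0.606), and Normal lay 1.33 ± 0.06 above control (adjusted p = 1.51e-11).

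Each strain-adjusted difference is the direct difference between tumours minus the difference between normal lungs. Of the 13 genes 9 were also called in the direct difference (448 genes, 2.46%, with 1.32% higher and 1.14% lower), and 5 were called between the normal sets (189 genes, 1.04%, with 0.676% higher and 0.363% lower). For Cd200r4, Eya1, Lipf, Dhrs3, Scpep1, Nrg4, Gpc6 and Fam114a1 the difference between tumours was larger than that between normal lungs. For Slc15a2, Zfp874a, Tmem119, Peak1 and Sybu the difference between normal lungs was the larger. Over all genes the direct tumour difference and the normal difference correlated at r = 0.184. The pair of call lists shared 22 genes, 4.91% of the tumour list and 11.6% of the normal list, 21 of them in the same direction. After the mean of their own normal lungs was subtracted, the tumour arrays did not overlap for 13 of the 13 genes and for 7.12% of all genes (3.43% with L858R higher, 3.69% lower), a measure of the same contrast as the call.

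**Figure D3:**
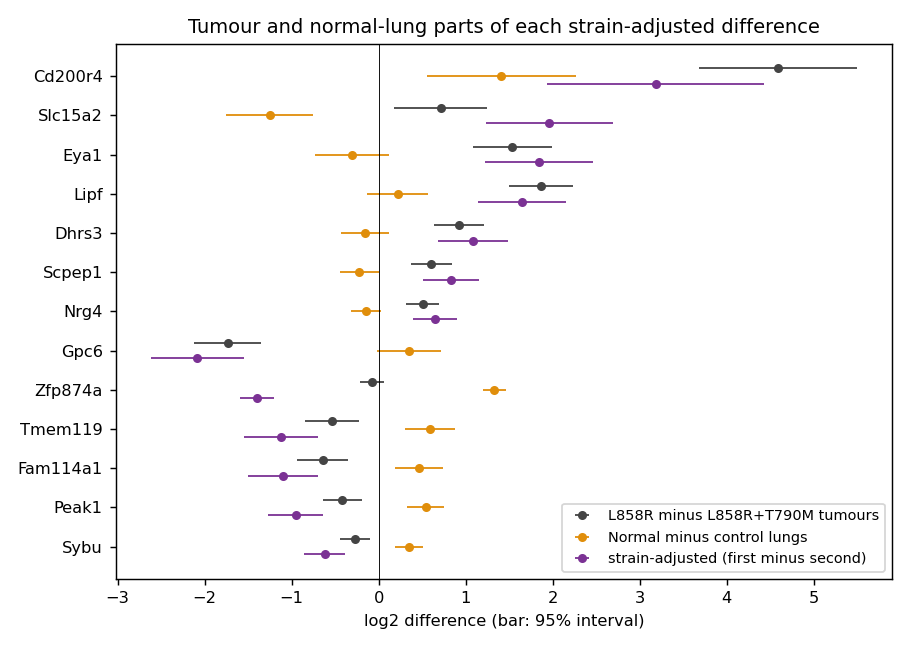
For each called gene, the log2 difference between the tumour groups, between the normal sets and after subtraction, with 95% intervals. Lipf and Gpc6 differ mainly between tumours, whereas Zfp874a differs mainly between normal lungs (1.33 against -0.07).

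Among the 9 genes called in opposite directions, Eya1, Dhrs3 and Gpc6 were also called in the contrast, and the other 6 were not. These 9 were chosen by their calls in the tumour effects after the values were seen. Gcnt1, an enzyme of O-glycan branching, was 0.81 ± 0.27 in L858R and -0.72 ± 0.26 in L858R+T790M tumours, with a difference of 1.53 ± 0.38 (adjusted p = 0.118). Mfge8, a secreted protein that bridges dying cells to phagocytes, was -0.62 ± 0.19 and 0.47 ± 0.18, with a difference of -1.09 ± 0.26 (adjusted p = 0.116). The remaining differences were smaller, namely 0.75 for Pnrc2, 0.62 for Socs7, 0.59 for Sgpp1 and -0.66 for Cpt1c, with adjusted p from 0.0611 to 0.110. The share called in opposite directions was 0.0495% of all genes.

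The genes next to the threshold included an EGFR ligand. Hbegf, the gene of heparin-binding EGF, measured 9.70, 9.22, 9.81 and 9.31 in L858R tumours and 9.59, 9.57, 9.58, 9.54 and 9.80 in Normal. It measured 10.35, 9.89, 10.38, 10.30 and 10.38 in L858R+T790M tumours and 9.18, 8.90, 9.32, 8.90 and 8.62 in control. L858R tumours overlapped their normal lungs, and L858R+T790M tumours lay above every other array. The L858R effect was -0.11 ± 0.20 (95% interval -0.52 to 0.30) and the L858R+T790M effect 1.28 ± 0.19 (adjusted p = 1.55e-05). Their difference was -1.38 ± 0.27 (adjusted p = 0.0525), and it passed the threshold without control replicate 3, L858R replicate 3 or L858R+T790M replicate 2 (-1.48 to -1.29 over all 19). A fit to the 4 groups alone also called it (adjusted p = 0.00680), and its other probe set gave -1.02 ± 0.27. The normal sets contributed, since Normal lay 0.63 ± 0.19 above control (adjusted p = 0.0945).

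The other genes just outside the threshold were Vstm2a (1.81 ± 0.38, adjusted p = 0.0711) and Ccdc136 (0.46 ± 0.10, adjusted p = 0.0711) on the higher side. On the lower side were the chemokine-scavenging receptor gene Ackr4 (-0.80 ± 0.16) and the zinc finger gene Zfp346 (-0.78 ± 0.15), both with an adjusted p of 0.0525. The nuclear long non-coding RNA Malat1 stood at -0.88 ± 0.18 (adjusted p = 0.0601), but its 6 other probe sets ran from -0.32 to 0.30.

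The 60 gene lists held 744 measured entries, and Gpc6 was the only one called. The lists are therefore described by counts and medians against all genes (median 0.01, 51.9% above zero, 4.82% higher and 4.72% lower at an unadjusted p under 0.05).

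The EGFR ligands were high in both tumour groups. Of 6 measured ligands, 4 were called higher in L858R (23.3% of all genes were) and 5 in L858R+T790M tumours (20.2%). Epiregulin, Ereg, was 10.59, 10.69, 10.80 and 10.52 in L858R tumours against 4.35 to 5.05 in Normal, and 12.45, 11.45, 10.87, 11.73 and 11.91 in L858R+T790M tumours against 4.95 to 6.09 in control. Every L858R+T790M tumour lay above every L858R tumour. The effects were 5.85 ± 0.55 and 6.43 ± 0.52, and their difference was -0.58 ± 0.76 (95% interval -2.15 to 0.99). The remaining differences were -0.23 ± 0.21 for epigen (Epgn), -0.10 ± 0.22 for Tgfa, -0.01 ± 0.32 for betacellulin (Btc) and 0.23 ± 0.33 for Egf, none called. With Hbegf, 5 of 6 ligands lay below zero (median -0.17). The median was -0.25 without L858R+T790M replicate 5 and -0.11 without L858R replicate 1. Btc turned above zero when any of several single arrays was left out, and Tgfa did so with probe set medians (0.024). The list mean was 8.57 to 8.89 in L858R and 8.92 to 9.45 in L858R+T790M tumours, against 7.29 to 7.44 in Normal and 7.18 to 7.63 in control.

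The receptors differed less. Erbb3 rose in both tumour groups, by 1.18 in L858R and 1.04 in L858R+T790M (difference 0.14 ± 0.26), and Erbb2 by 0.58 and 0.72 (-0.14 ± 0.13). Erbb4, the receptor of neuregulin 4, had a low mean level of 3.5 and a difference of -0.16 ± 0.09. Egfr differed by 0.06 ± 0.09 at its brightest probe set, and its 6 other probe sets ran from -0.76 to 0.17. The probe sets of Egfr were not alike. The brightest had effects of 0.06 in L858R and -0.01 in L858R+T790M tumours, and the next brightest -1.87 and -1.71 (difference -0.16 ± 0.49). A dimmer probe set differed by -0.59 ± 0.18 (unadjusted p = 0.00324 in limma). Detection of the transgene by these mouse probe sets was not tested. Errfi1, the gene of an EGFR kinase inhibitor induced by the receptor, rose by 1.01 and 1.24 (-0.23 ± 0.29).

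Feedback regulators of ERK were called higher in 7 of 10 cases in L858R tumours (23.3% of all genes were) and in 9 of 10 in L858R+T790M tumours (20.2%). In the contrast 9 of 10 lay below zero (median -0.21), 2 at an unadjusted p under 0.05. The phosphatase genes Dusp4 (effects 1.59 and 2.06, difference -0.47 ± 0.38) and Dusp6 (0.72 and 0.96, -0.24 ± 0.19) and the inhibitor gene Spred1 (1.35 and 1.65, -0.30 ± 0.26) showed the small size of these differences. Spry4 was 0.08 in L858R and 0.61 in L858R+T790M tumours (-0.54 ± 0.20, unadjusted p = 0.0142). The list median was -0.34 without L858R replicate 3 and -0.13 without L858R replicate 2.

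Proliferation genes leaned the other way. All 22 mitosis genes lay above zero in the contrast (median 0.56), as did all 19 DNA replication genes (median 0.26), with 3 and 1 at an unadjusted p under 0.05. These numbers hung on single arrays. For mitosis it was 16 without L858R replicate 4, 10 without L858R+T790M replicate 4 and 5 without Normal replicate 4, and it was 1 without control replicate 4, L858R replicate 1, 2 or 3, L858R+T790M replicate 2 or 5, or Normal replicate 1. For DNA replication it was 9 without L858R replicate 4 and 2 without control replicate 1 or L858R+T790M replicate 3 or 4. It was 0 without control replicate 4, L858R replicate 2, L858R+T790M replicate 2, or Normal replicate 1 or 3. Against their own normal lungs, 20 of 22 mitosis genes were called higher in L858R tumours (23.3% of all genes) and 8 of 22 in L858R+T790M tumours (20.2% of all genes). For DNA replication the counts were 11 and 5 of 19, the second near the share over all genes. Mki67, the Ki-67 antigen, was 1.48 and 0.94 (difference 0.54 ± 0.53), the spindle kinase gene Aurkb 1.01 and 0.28 (0.73 ± 0.27), Ttk 1.09 and 0.49 (0.60 ± 0.27) and the replication clamp Pcna 0.29 and -0.20 (0.48 ± 0.21). The tumours of each group were spread widely. The mitosis mean was 8.89, 8.17, 8.25 and 7.33 in L858R tumours and 7.51, 6.94, 7.84, 8.12 and 7.36 in L858R+T790M tumours, against 6.77 to 7.31 in Normal and 6.84 to 7.19 in control. The groups of tumours overlapped, and the median was 0.33 without L858R replicate 1 and 0.90 without L858R replicate 4. For DNA replication it was 0.15 without L858R replicate 2 and 0.55 without L858R replicate 4.

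Alveolar macrophage genes lay above zero in the contrast for 10 of 11 members (median 0.74), 5 of them at an unadjusted p under 0.05. That number was 2 without L858R replicate 1 and 3 without L858R replicate 2 or L858R+T790M replicate 2. In L858R tumours 9 of 11 were called higher than in normal lung (23.3% of all genes). In L858R+T790M tumours 3 were, near the share over all genes (20.2%). Siglecf, a lectin gene that defines these cells in the mouse, had effects of 2.33 and 0.07 and a difference of 2.26 ± 0.56 (adjusted p = 0.118). Plet1 (1.27 ± 0.38), Olr1 (1.40 ± 0.58) and the fatty acid binding protein gene Fabp1 (2.02 ± 0.84) pointed the same way. Marco, a scavenger receptor gene, did not, with effects of 3.42 and 3.65 and a difference of -0.22 ± 0.76. The list mean was 11.12, 11.49, 10.65 and 10.96 in L858R tumours and 10.62, 9.03, 10.16, 10.89 and 10.46 in L858R+T790M tumours, against 9.36 to 9.71 in Normal and 9.56 to 9.80 in control. L858R+T790M replicate 2 lay below all normal lungs, and without it the median fell to 0.44. Outside this list, the chemokine gene Ccl6, made by macrophages, was 1.08 ± 0.29 and the cytokine gene Il18 1.22 ± 0.36. The leukotriene genes Alox5 (0.73 ± 0.25), Ltc4s (1.09 ± 0.34) and Alox5ap (1.15 ± 0.46) had differences above zero as well. None of these was called, and they were picked from lists with members on both sides. Below zero lay 19 of 23 chemokine genes and 9 of 18 interleukin and colony stimulating factor genes. So did 4 of 13 prostaglandin and leukotriene enzyme genes. Of 11 lipid-associated macrophage genes 8 lay above zero (median 0.30), and the median of the direct difference was 0.045.

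Monocyte and interstitial macrophage, interferon response and chemokine genes lay mostly on the L858R+T790M side, while interleukin and colony stimulating factor genes (9 of 18 above zero) and neutrophil genes (5 of 9) were split. Of 9 monocyte and interstitial macrophage genes 8 were below zero (median -0.55), with the complement genes C1qa (-1.06 ± 0.40) and C1qc (-1.12 ± 0.47) at an unadjusted p under 0.05. The median was -0.18 without L858R+T790M replicate 5, -0.36 without replicate 1 and -0.95 without replicate 2 of that group. Of these 2 genes 1 passed without L858R replicate 4, L858R+T790M replicate 1 or 5, or Normal replicate 3. The mean of these genes reached 9.88 in L858R+T790M replicate 1 and 10.41 in replicate 5 and was 8.42 to 8.96 in the other tumours of that group, against 8.46 to 8.94 in L858R tumours, 8.72 to 9.24 in Normal and 8.88 to 9.44 in control. Those 2 tumours stood above all other arrays of the 4 groups. All 18 interferon response genes lay below zero (median -0.998), but 0 reached an unadjusted p under 0.05 in limma. Without L858R+T790M replicate 2 there were 11 such genes, without replicate 4 of that group 3, without its replicate 3 there were 2, and without L858R replicate 1 there was 1. Ifit2, an interferon-induced gene, was -1.80 ± 0.91 and the transcription factor gene Irf7 -1.20 ± 0.69. The interferon mean was 9.45, 7.59, 8.21, 8.43 and 11.06 in L858R+T790M tumours, 8.43, 7.84, 7.87 and 8.03 in L858R tumours, 8.42 to 9.04 in Normal and 8.55 to 8.80 in control. L858R+T790M replicates 1 and 5 stood above all other arrays of the 4 groups. Outside these groups, T790M replicate 1 reached 9.73. The other L858R+T790M tumours reached no higher than the highest L858R tumour to 2 decimals. Without replicate 5 the median was -0.55.

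Chemokine genes also lay mostly on that side, with 19 of 23 below zero (median -0.97) and 5 at an unadjusted p under 0.05 in that direction. That number was 12 without L858R+T790M replicate 2 and 9 without replicate 3 of that group. It was 3 without L858R replicate 4, L858R+T790M replicate 1, or Normal replicate 2, 3 or 5. Ccl12 (effects -0.16 and 2.01, difference -2.17 ± 0.76), Cxcl13 (-1.62 ± 0.56) and Ccl2 (-1.35 ± 0.64), which attract monocytes or B cells, were among them. The list mean was 9.26, 7.74, 7.95, 8.24 and 9.77 in L858R+T790M tumours, with replicates 1 and 5 again the highest, against 7.54 to 7.76 in L858R tumours. Normal lay between 7.52 and 8.11 and control between 7.75 and 7.94. Lif, a cytokine of the interleukin 6 family, was 0.58 in L858R and 1.43 in L858R+T790M tumours (-0.85 ± 0.21, adjusted p = 0.118).

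**Figure D4:**
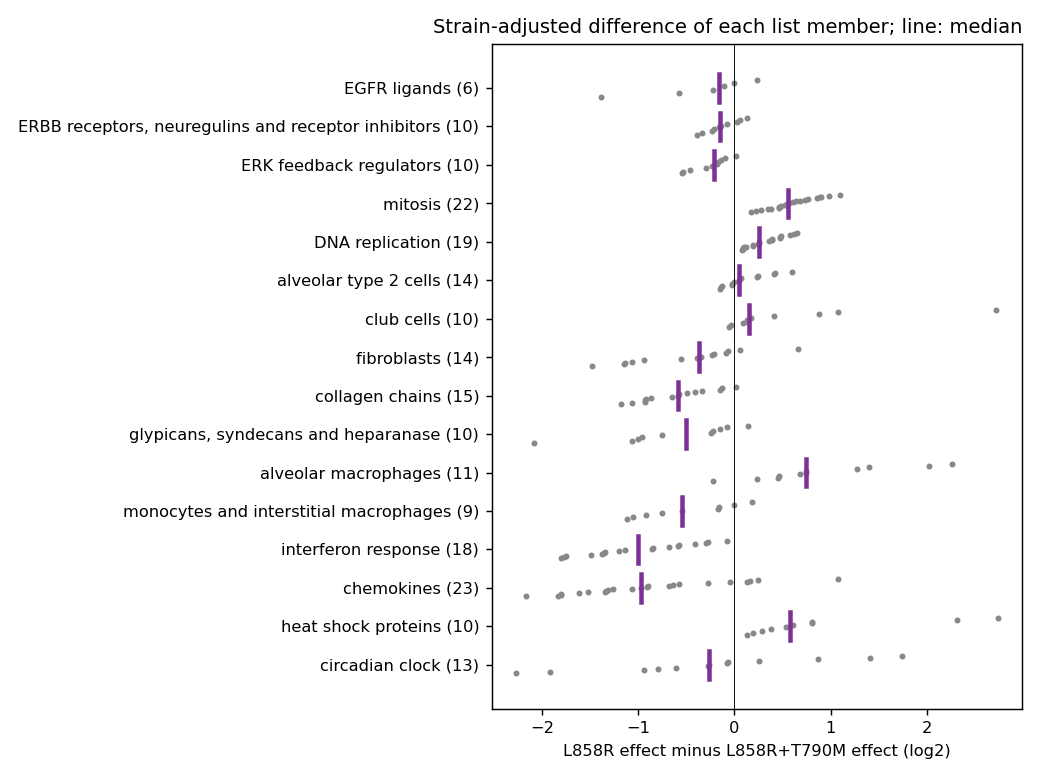
Strain-adjusted log2 difference of every measured member of 16 gene lists, one point per gene, with the list median as a line and the number of members in brackets. Mitosis, DNA replication and heat shock genes lie wholly above zero and interferon response genes wholly below, with Gpc6 (-2.08) the only called gene shown.

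Matrix genes leaned to L858R+T790M as well. Of 15 collagen chain genes 14 lay below zero (median -0.59), 4 at an unadjusted p under 0.05, including Col1a1 (-1.18 ± 0.55) and Col1a2 (-1.06 ± 0.48). That number was 1 without L858R replicate 2 and 2 without control replicate 5, L858R+T790M replicate 1 or Normal replicate 5. Much of this lay in the normal lungs: the collagen mean was 9.87 to 10.33 in L858R tumours and 9.93 to 10.68 in L858R+T790M tumours, which overlap, and 10.52 to 10.97 in Normal against 9.87 to 10.37 in control. The median of the direct tumour difference was -0.13, and Col1a1 turned to 0.20 there. Beside Gpc6, the heparanase gene Hpse (-0.96 ± 0.25), the syndecan gene Sdc2 (-0.75 ± 0.21) and Gpc1 (-1.07 ± 0.40) lay below zero at an unadjusted p under 0.05. Of the 10 glypican, syndecan and heparanase genes 9 lay below zero (median -0.50; -0.27 for the direct difference). The gelatinase gene Mmp2 had effects of -2.545 and -0.652 and a difference of -1.89 ± 0.62, with Normal 1.20 above control. Wnt2, a ligand made by lung fibroblasts, fell in both groups (effects -3.19 and -1.71, difference -1.48 ± 0.37). Fibroblast markers fell in both tumour groups, 14 of 14 in L858R (18.1% of all genes were called lower) and 13 of 14 in L858R+T790M (16.1%), and 12 of 14 lay below zero in the contrast (median -0.37). That median was -0.79 without L858R replicate 1 and -0.19 without L858R replicate 4. It was -0.57, -0.55 and -0.24 without L858R+T790M replicates 1, 2 and 5, and -0.08 for the direct difference.

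Of the epithelial lists, none had a called gene in the contrast. Of 14 alveolar type 2 genes, 12 were called higher in each tumour group (23.3% and 20.2% of all genes). In the contrast 8 of 14 lay above zero, with a median of 0.05 that ran from -0.01 without L858R+T790M replicate 5 to 0.10 without L858R replicate 4. Napsa, an aspartic protease of type 2 cells, was 1.27 and 0.68 (0.60 ± 0.20, unadjusted p = 0.00613), whereas Sftpc was -0.03 ± 0.05. Club cell genes fell in both groups (8 and 9 of 10, against 18.1% and 16.1% of all genes called lower). In the contrast 8 of 10 lay above zero, 1 at an unadjusted p under 0.05, with a median of 0.15. The median was 0.06 without L858R replicate 1 and 0.76 without L858R replicate 4. Cbr2, a carbonyl reductase of club cells, had the highest difference of the list, at -0.68 in L858R and -3.39 in L858R+T790M tumours (2.72 ± 0.88, unadjusted p = 0.00538). Cyp2f2 was -2.96 and -4.04 (1.08 ± 0.98). Of 12 alveolar type 1 genes 10 lay below zero (median -0.17), but the median of the direct difference was 0.09. The median was -0.07 without L858R+T790M replicate 5, -0.34 without replicate 2 of that group, -0.33 without L858R replicate 1 and -0.26 without control replicate 3. The type 1 gene Pdpn, which had the lowest difference of the list, was -1.95 in L858R and -0.25 in L858R+T790M tumours (-1.70 ± 0.53). Among keratins, Krt79 was 1.49 and -0.60 (2.09 ± 0.56, unadjusted p = 0.00125), while Krt7 (-0.98 ± 0.43) and Krt19 (-0.69 ± 0.32) lay on the other side. Of 18 gut, liver and oncofetal genes 15 lay below zero (median -0.39), with 0 at an unadjusted p under 0.05 in limma. That median hung on a single normal lung, at -0.11 without Normal replicate 3 and -0.47 without Normal replicate 5. The list mean was 7.91 in Normal replicate 3 against 6.91 to 7.12 in the other Normal lungs.

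Heat shock genes varied between the arrays of a group. The mean of the clock genes differed between the normal sets, at 9.45 to 9.71 in Normal and 9.18 to 9.38 in control. It was 8.96 to 9.36 in L858R tumours and 8.96 to 9.15 in L858R+T790M tumours. All 10 heat shock protein genes lay above zero (median 0.57), led by Hspa1a (effects -0.84 and -3.58, difference 2.74 ± 1.19) and Hspa1b (2.31 ± 0.93). The list mean ran from 10.54 to 12.13 in L858R tumours, 10.38 to 11.05 in L858R+T790M tumours, 10.82 to 12.00 in Normal and 11.39 to 12.69 in control, and the median of the direct difference was 0.09. Without L858R replicate 1 the median fell to 0.22. Of the clock genes, Nr1d1 (-1.91 ± 0.43, adjusted p = 0.0934) and Dbp (-2.27 ± 0.92), which peak together in the day, lay below zero. For Nr1d1 the normal lungs differed more than the tumours, with Normal 1.69 ± 0.30 above control (adjusted p = 0.00846) and the tumours -0.23 ± 0.31 apart. Arntl (1.41 ± 0.49) and Npas2 (1.74 ± 0.65), which peak opposite to them, lay above. Other probe sets of Arntl and Npas2 gave 0.0045 ± 0.14 and 0.56 ± 0.29. Normal minus control was 1.78 for Dbp, -0.98 for Arntl and -0.90 for Npas2. Of all 13 clock genes 4 lay above zero (median -0.26), and the median of the direct difference was -0.055. The labels give no hour of harvest, and its part in these values was not tested.

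**Figure D5:**
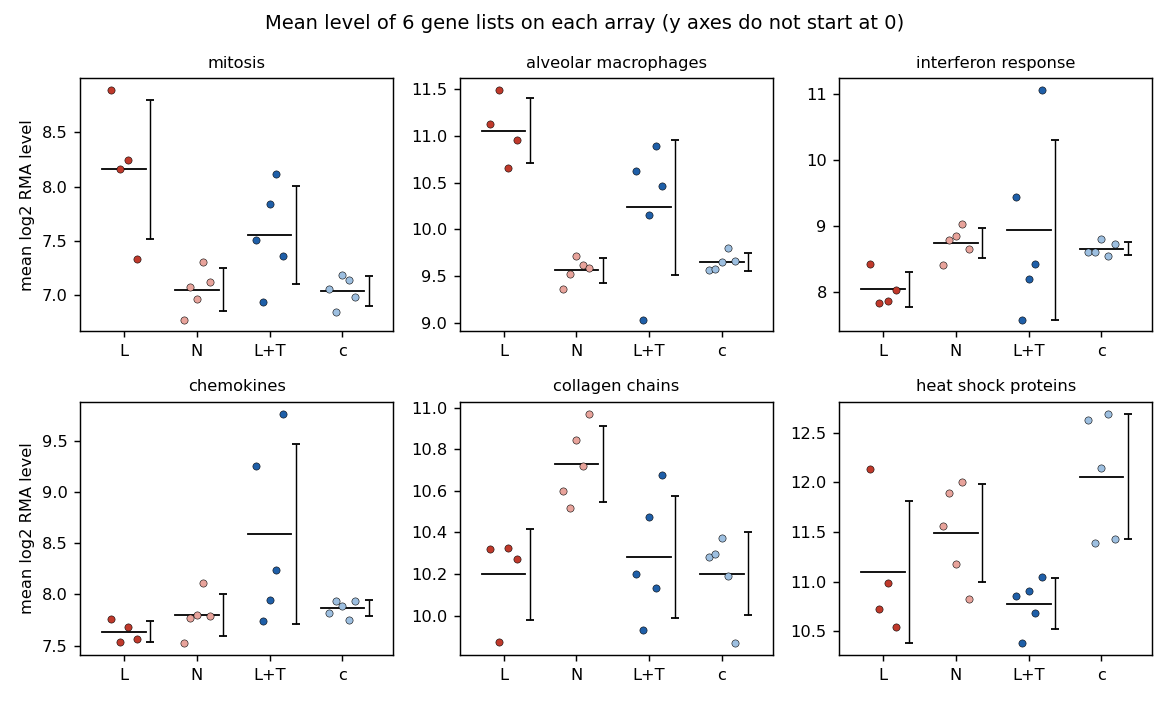
Mean log2 level of 6 gene lists on each array of the 4 groups, with the group mean as a bar and the SD as a whisker. L858R+T790M replicates 1 and 5 carry the high interferon and chemokine means (9.45 and 11.06; 9.26 and 9.77), and replicate 2 the low alveolar macrophage mean (9.03).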

How the data were processed

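Total RNA of flash-frozen, pulverized mouse lung was hybridised to 1 array per sample, per the labels. The authors deposited 1 log2 value per probe set and array. These were computed by RMA according to what the submitters' processing notes list, in a version not given in the sources used here. Arrays hold no counts, so their number per group, 4 or 5, limits the precision. No normalization was added. Of 45101 probe sets, 64 were controls, 34945 had 1 gene, 932 several and 9160 none. Symbols were updated by Entrez identifier for 34741 and kept for 204. Each of 18193 genes was represented by the brightest of its probe sets on average.

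limma 3.58.1 in R 4.3.3 was fitted to 5 group means over all 24 arrays (eBayes with a trend, 19 residual degrees of freedom, two-sided, Benjamini-Hochberg over all genes, called at an adjusted p under 0.05). T790M tumours entered only the estimate of the spread. The fit was tested on simulated data, and no identical arrays were found. Named genes were the called genes, filled to 10 in each direction by the smallest p with accession-like names passed over, and members of 60 gene lists (744 of 804 entries measured). The contrast, the lists and the members named were chosen with earlier results of these data known. The sex score used Xist, Eif2s3y, Kdm5d and Uty, since Ddx3y, also planned, had no probe set with 1 gene. Figures were drawn with matplotlib 3.10.9 in Python 3.11.15.

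Alternatives changed the scaling, the probe sets, the filter, the weights, the groups fitted and the threshold, added a replicate block or sex, took the direct tumour difference and left out each array. Weights per group and medians and unadjusted counts of lists under the alternatives were added after seeing the data.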

Additional observations from a re-analysis of the deposited data

Results flagged for a closer look

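The tumour effects of L858R and L858R+T790M differed by the test of the difference itself for 13 genes. Lipf (1.64), Nrg4 (0.65) and Fam114a1 (-1.10) had no call in L858R+T790M tumours, and neither did Cd200r4 (3.18), Scpep1 (0.83) and Zfp874a (-1.40). Eya1 (1.84), Dhrs3 (1.08) and Gpc6 (-2.08) were called on opposite sides of normal lung. Slc15a2 (1.96) rose, and Tmem119 (-1.12), Peak1 (-0.95) and Sybu (-0.62) fell, in both tumour groups.

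In 7 of 128 groups checked, over 20 genes and 12 list means, 1 array stood apart from the others of its group. Chance gives about 1 in 20 such groups. For Ms4a8a it was L858R+T790M replicate 1, at 5.53 against 5.91 to 6.06 in the other L858R+T790M tumours. Hbegf read 9.80 in Normal replicate 5 against 9.54 to 9.59, and 9.89 in L858R+T790M replicate 2 against 10.30 to 10.38. The mean of the ERK feedback genes was 9.35 in control replicate 5 against 9.46 to 9.49. The mean of the collagen chains was 9.87 in L858R replicate 2 against 10.27 to 10.33. The mean of the glypican, syndecan and heparanase genes was 9.10 in control replicate 3 against 8.97 to 9.01. The mean of the clock genes was 8.96 in L858R+T790M replicate 4 against 9.10 to 9.15.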

How the results depend on the processing

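The count of 13 called genes was 20 after quantile normalization again, 62 over every probe set, 7 without the dimmest genes (12127 tested), 45 with array weights, 46 in a fit to the 4 groups alone, 3 at an adjusted p under 0.01 and 448 for the direct difference between tumours. It stayed within 1.5 times 13 with median centring, probe set medians, no trend, a sex score, a 2-fold minimum and weights per group (9 to 16). The 13 genes called with probe set medians were not the same 13, since 7 were shared. With the replicate number as a block it was 8 (7 shared). The numbers showed no pairing of the samples by correlation. Of 27 same-numbered pairs 2 correlated above 0.1 (-0.28 to 0.15), and 1 of 19 arrays correlated best with its own number. Whether arrays of the same number shared a batch was not tested. With 1 array left out the count of called genes ran from 5 to 25. L858R against Normal gave 14043 calls over every probe set and 1966 by at least 2-fold, and 6735 to 7756 with 1 array left out. L858R+T790M against control gave 11911 and 1536, and 5834 to 6721. Over the 86 genes named or listed for naming, 1095 of 1187 values kept direction and side of the threshold under the settings other than leaving out an array, as did 1503 of 1634 with 1 array left out. Most of the 86 genes were uncalled and stayed so, so these shares say little about the 13 called genes. Every lost call belonged to the 13 called genes, 37 under the other settings and 101 with 1 array left out. The totals of 1187 and 1634 cover all 86 genes, so they are no base for these losses. With 1 array left out, the calls kept per called gene ran from 2 of 19 for Nrg4 to 19 of 19 for genes such as Eya1.

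No called gene changed direction in these settings. Among uncalled genes, probe set medians turned Malat1 (0.37), Tgfa (0.024), Btc (0.00925), Egfr (-0.34) and Marco (0.14), and the direct difference turned Tgfa (0.0405), Erbb4 (0.0755) and Col1a1 (0.20). Btc also turned with median centring (0.016) and the replicate block (0.0114), and without any 1 of 7 arrays. With 1 array left out Btc ran from -0.15 to 0.17 and Marco, which turned without any 1 of 3, from -0.77 to 0.16. The cause was not tested. With 4 or 5 arrays in a group, the 95% interval of a gene had a median half-width of 0.32.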
